A study of Mus musculus with 17 samples.

Results

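The mitochondrial ribosome (mitoribosome) is built inside mitochondria from 2 rRNAs encoded by mitochondrial DNA and from a large set of proteins encoded in the nucleus, translated in the cytosol and imported. It translates the 13 mRNAs of the mitochondrial genome, all of which encode subunits of the respiratory chain and ATP synthase, the machinery that couples glucose oxidation to insulin secretion in β cells. The genes of its protein subunits are described here. They were chosen by symbol alone, as genes whose symbol begins with *Mrpl* (large subunit) or *Mrps* (small subunit) and a digit, with at least 1 protein-coding transcript. This gave 78 of the 55357 genes in the files, 49 named *Mrpl* and 29 named *Mrps*, with 6 pseudogenes left out. The names date from before structures were known. *Mrps30* and *Mrps18a* encode proteins that sit in the large subunit, and the product of *Mrps36* is now known as a subunit of the 2-oxoglutarate dehydrogenase complex.

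The data are RNA sequencing of sorted β cells from male mice on a C57BL/6 background, in 17 samples of 4 groups. Control cells (WT in the labels) came from *tdTomato* mice, which carry RIP-Cre, a Cre driven by the rat insulin promoter, and a Cre-inducible red fluorescent reporter. The labels name only the reporter for them, and their Cre is given in the text of the study. *Pcbp2*βKO cells came from mice with RIP-Cre, 2 floxed alleles of the RNA-binding protein gene *Pcbp2*, and the same reporter. By the study's methods, islets for sequencing first recovered for 3 days at a glucose concentration between the 2 compared here. Whole islets were then cultured for 72 hours at a low glucose concentration (2.8 mM) or a high one (16.7 mM). Live tdTomato+ cells were sorted afterwards, giving 3 control samples at 2.8 mM, 4 at 16.7 mM, and 5 *Pcbp2*βKO samples at each concentration. The age of the mice was not found in the sources used here, and nothing says whether replicates came from separate animals, so that p values measure the spread between these samples. The libraries held between 47385513 and 82419400 estimated counts. *Pcbp2* lay between 35.0 and 73.4 CPM (estimated counts scaled to a common library size) in the 7 control samples and between 5.81 and 19.2 in the 10 *Pcbp2*βKO samples.

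Some properties of the libraries moved with glucose and touch every value below. *Ins1* and *Ins2*, the insulin genes, took 5.04 to 10.5% of the counts over the 8 low-glucose samples, and 22.3 to 33.1% over the 9 high-glucose samples. CPM were computed on library sizes adjusted by trimmed means (TMM), and a change is relative to the bulk of genes. The summed level of 6 alpha cell markers was 691 to 2624 CPM in control cells at 2.8 mM and 538 to 1572 at 16.7 mM. Control cells at the high concentration had less of 4 macrophage markers (2.21 to 15.1 CPM, against 18.1 to 65.2) and of 2 PP cell markers (368 to 999 CPM, against 1111 to 1208), without overlap, while 4 ductal markers had 51.5 to 802 CPM against 22.0 to 117. In the *Pcbp2*βKO samples the 6 alpha cell markers had 1570 to 9439 CPM at 2.8 mM and 953 to 1812 at 16.7 mM. Their macrophage markers had 26.1 to 152 CPM at 2.8 mM and 1.64 to 13.5 at 16.7 mM. Acinar markers stayed at or under 0.327 CPM in summed level. The part of these cells in the results was not tested, and fewer cells of a type cannot be told apart from less RNA per cell. On the first principal component, control replicate 4 and *Pcbp2*βKO replicates 4 and 5 at 16.7 mM lay between 9.9 and 33.2, apart from the other samples at 16.7 mM, which lay at 90.9 or above. Results without these 3 libraries are given beside the counts.

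At 2.8 mM glucose, the genes were expressed at very different levels, although their products are assembled into 1 particle. In control cells, the mean level per length (TPM, the share of a transcript among all transcripts) ranged from 5.82 for *Mrpl47* to 250 for *Mrpl30*, a 43.0-fold range, with a median of 49.3 TPM against 1.31 over all 22784 genes tested. All 78 genes passed the filter on low counts, and the lowest mean estimated count of a member was 799, for *Mrpl47*. Over all 17 samples, the highest means were those of *Mrps21* (168 TPM), *Mrpl30* (157 TPM) and *Mrpl42* (145 TPM), and the lowest were those of *Mrpl47* (4.26 TPM), *Mrpl19* (4.31 TPM) and *Mrpl45* (5.85 TPM).

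The promoters of these genes were described first, because the genes encode parts of 1 complex and factors that bind ETS, NRF1 and YY1 motifs are known to act on nuclear genes for mitochondrial proteins. Windows of 300 bases, from 250 before to 50 after the start of the canonical transcript, were read from the GRCm39 genome, and 6 motifs were searched on both strands. The ETS motif (CCGGAAG) was found in 24 of the 78 promoters (30.8%), against 10.3% of 21757 promoters of protein-coding genes and 13.3% of those of tested genes. The NRF1 motif (GCGCANGCG) was found in 16 (20.5%, against 8.08%) and the YY1 motif (AAGATGGCG) in 4 (5.13%, against 1.34%). At least 1 of these 3 was present in 38 members (48.7%), against 17.8% of all promoters. The motifs of SP/KLF factors (GGGCGG, 42.3% against 42.5%), of E-box factors (CACGTG, 6.41% against 7.82%) and the CCAAT box (34.6% against 39.9%) were about as frequent as in all promoters. Against promoters of tested genes, to which all members belong, the shares were 10.3% for NRF1, 1.79% for YY1, 52.5% for SP/KLF, 9.12% for the E-box and 39.1% for CCAAT, so that SP/KLF matches were less frequent in the members on that background. ETS matches lay close to the start: 21 members held 1 within 60 bases on either side (26.9%, against 7.11% of all promoters). TATAAA within 50 bases before the start was found in 2 members. A match describes letters in this window and not binding.

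**Figure D1:**
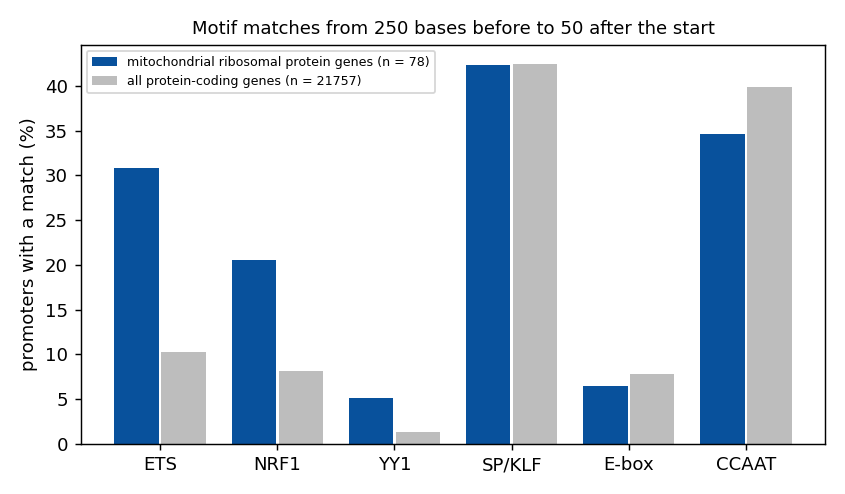
Percent of promoters with at least 1 match to each of 6 motifs on either strand, from 250 bases before to 50 after the start, for the 78 genes (blue bars) and for 21757 protein-coding genes (grey bars). ETS, NRF1 and YY1 matches were more frequent in the 78 genes (30.8%, 20.5% and 5.13%) than in all promoters, and the other 3 motifs were not (42.3%, 6.41% and 34.6%).

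Some of the stretches just before the start, 60 to 100 bases long and cut where another annotated exon begins, are shown for genes that the glucose comparison turns on (5 that were lower, then *Mrpl33*, which was higher) and for *Mrpl45*, a gene of low level with an NRF1 match. Sequences run 5′ to 3′ on the strand of the gene, and capitals mark motif matches: SP/KLF in *Mrpl23* and *Mrps24*, ETS in *Mrpl52*, CCAAT in *Mrpl33* and NRF1 in *Mrpl45*. The stretches of *Mrpl30* and *Mrpl9* hold no match, and the NRF1 matches of *Mrpl30* lie further upstream, at -102 and -82 from the start. Other NRF1 matches outside the stretches lie in *Mrpl9* (22 and 23) and *Mrpl45* (-120 and 17). ETS matches after the start lie in *Mrpl52* (9) and *Mrpl33* (10).
Mrpl30 (chr1:37929498-37929557, plus strand): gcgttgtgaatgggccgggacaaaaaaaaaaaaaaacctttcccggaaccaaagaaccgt
Mrpl23 (chr7:142086649-142086748, plus strand): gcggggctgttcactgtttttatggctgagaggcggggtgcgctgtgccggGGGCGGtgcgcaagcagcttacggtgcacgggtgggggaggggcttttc
Mrpl9 (chr3:94350494-94350593, plus strand): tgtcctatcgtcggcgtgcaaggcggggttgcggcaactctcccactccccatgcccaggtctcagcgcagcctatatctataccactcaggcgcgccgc
Mrpl52 (chr14:54664280-54664359, plus strand): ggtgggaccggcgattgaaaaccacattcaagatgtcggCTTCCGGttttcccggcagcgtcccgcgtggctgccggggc
Mrps24 (chr11:5657733-5657832, minus strand): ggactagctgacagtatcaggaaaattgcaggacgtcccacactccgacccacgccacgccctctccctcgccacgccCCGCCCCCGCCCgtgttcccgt
Mrpl33 (chr5:31771183-31771282, plus strand): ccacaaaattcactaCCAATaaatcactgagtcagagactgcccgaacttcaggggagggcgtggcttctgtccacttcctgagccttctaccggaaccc
Mrpl45 (chr11:97206442-97206541, plus strand): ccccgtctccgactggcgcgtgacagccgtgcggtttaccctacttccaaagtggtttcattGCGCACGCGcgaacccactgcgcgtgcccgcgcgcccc

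A start site of another protein-coding gene on the opposite strand lay within 1000 bases upstream of the start in 14 of the 78 genes (17.9%), against 5.46% of all protein-coding genes. *Mrpl46* and *Mrps11* face each other with 30 bases between their starts, and each encodes a mitoribosomal protein. *Mrps12* faces *Sars2*, the mitochondrial seryl-tRNA synthetase gene, at 129 bases, *Mrpl43* faces *Twnk*, the mitochondrial DNA helicase gene, at 56 bases, and *Mrpl49* faces *Fau*, which encodes a protein of the cytosolic ribosome, at 52 bases. Exons of 22 members overlap those of another protein-coding gene. Since no source used here says that reads were assigned by strand, the levels of such genes are less certain. They include *Mrps14*, *Mrps18c*, *Mrpl19* and *Mrpl47*, and also *Mrpl13*, *Mrpl24* and *Mrps34*, whose transcript shares are given below. *Mrps6* shares exon sequence with *Slc5a3* on the same strand.

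The first question was how expression differed after 72 hours at the high and the low glucose concentration. In control cells, mitochondrial ribosomal protein genes were lower at 16.7 mM. By edgeR's quasi-likelihood test, counting as called the genes whose Benjamini-Hochberg adjusted p was below 0.05 with a change of more than 1.5-fold, 24 of 78 members were called lower (30.8%, against 6.69% of all genes tested) and 0 higher (7.15% of all genes). At the adjusted p alone, 28 were lower (8.15% of all genes) and 0 higher, and 47 had an unadjusted p under 0.05 (60.3%, against 29.3% of all genes). DESeq2 called 24 lower and 1 higher, where the shares of all genes were 7.82% and 9.3%. The median log2 fold change of the members was -0.37, against 0.04 over all genes, with quartiles at -0.65 and -0.11, and 64 members had a negative estimate. In 32 members, every sample at 16.7 mM was below every sample at 2.8 mM, as in 12.3% of all genes. Without the 3 libraries that lay apart, 28 members were called lower and 1 higher, where the shares of all genes were 11.5% and 9.98%. The count rested in part on control replicate 2 at 2.8 mM. Without it 11 members were called lower, where the share of all genes was 3.11%. Of the 24 members, 9 were called whichever of the 7 control samples was left out.

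**Figure D2:**
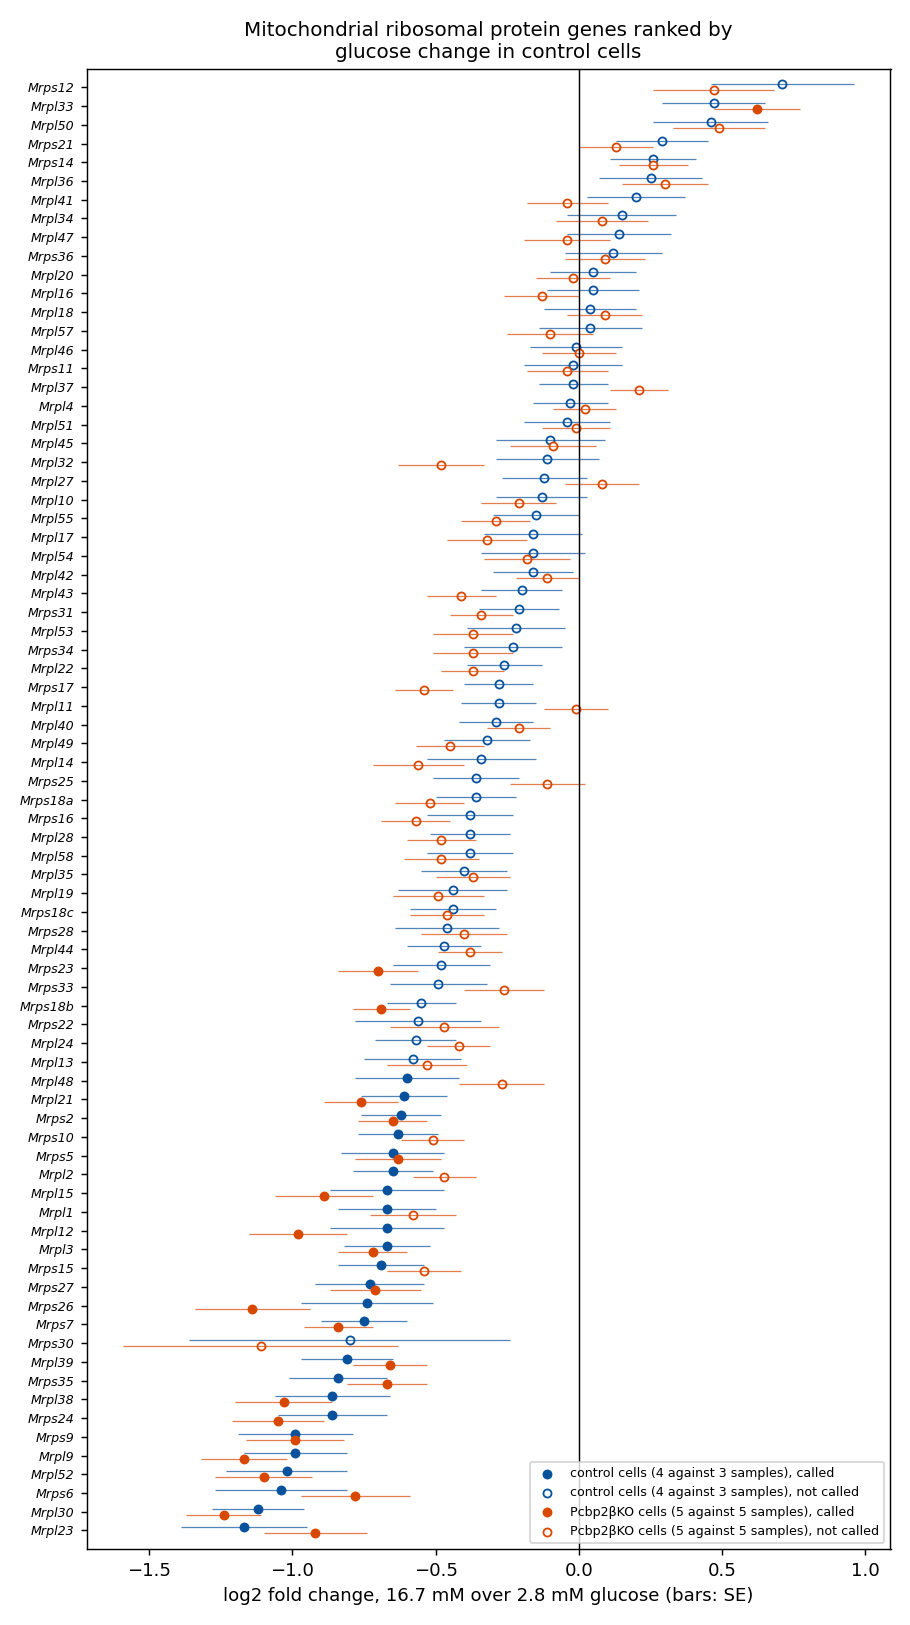
Log2 fold change from 2.8 to 16.7 mM glucose of each of the 78 genes, ranked by the value in control cells, with standard errors as bars (blue, control cells; orange, *Pcbp2*βKO cells; filled points, called). The values ran from -1.17 (*Mrpl23*) to 0.71 (*Mrps12*) in control cells, and the order in *Pcbp2*βKO cells differed in part, with *Mrpl23* at -0.92 and *Mrpl48* at -0.60 in control and -0.27 in *Pcbp2*βKO cells. On log2(TPM + 1) all 78 estimates were negative in both genotypes, where the median of all genes was -0.24 in control and -0.33 in *Pcbp2*βKO cells.

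*Mrpl30*, a large subunit gene and the most abundant member per length at 2.8 mM, had 113, 149 and 87.7 CPM in control cells at 2.8 mM and 59.4, 52.8, 51.6 and 51.0 at 16.7 mM. The groups did not overlap, and the log2 fold change was -1.12 (SE 0.16, edgeR adjusted p = 0.000536), or 0.461-fold. *Mrpl23*, also of the large subunit, had 20.5, 22.3 and 13.2 CPM at 2.8 mM and 6.95, 9.32, 7.02 and 9.77 at 16.7 mM. Here too the groups were separate, and the log2 fold change was -1.17 (SE 0.22, edgeR adjusted p = 0.00206), the most negative value of all members in control cells. A pseudogene of *Mrpl23* is in the files, and reads of the 2 could be divided between them. *Mrps6*, of the small subunit, had 18.4, 30.5 and 18.6 CPM against 11.6, 8.46, 13 and 10.7, a log2 fold change of -1.04 (SE 0.23, edgeR adjusted p = 0.00659), and was no longer called without control replicate 2 at 2.8 mM (-0.76). *Mrpl52* had 30.6, 35.4 and 18.3 CPM against 16.9, 11.4, 13.4 and 13.8, with a log2 fold change of -1.02 (SE 0.21, edgeR adjusted p = 0.00381). *Mrpl9* had 63.7, 82.7 and 52.5 CPM against 35.2, 28.3, 30.5 and 39.3, with a log2 fold change of -0.99 (SE 0.18, edgeR adjusted p = 0.00198). In each of these genes the lowest sample at 2.8 mM was above the highest at 16.7 mM, and in 4 of the 5 that lowest sample was replicate 3.

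In *Pcbp2*βKO cells the same comparison gave 21 of 78 members lower (26.9%, against 10.4% of all genes) and 1 higher, *Mrpl33* (13.4% of all genes were called higher). At the adjusted p alone, 43 were lower (55.1%, against 14.2% of all genes) and 2 higher, *Mrpl33* and *Mrpl50*. The median log2 fold change of the members was -0.42, against 0.01 over all genes, and 65 had a negative estimate. Every sample at 16.7 mM was below every sample at 2.8 mM in 39 members, as in 10.8% of all genes. Without the 3 libraries that lay apart, 29 were called lower and 1 higher, where the shares of all genes were 14.1% and 14.0%, and 17 of the 22 calls were made whichever of the 10 *Pcbp2*βKO samples was left out.

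*Mrpl30* fell the most in these cells too, from 115, 138, 106, 103 and 104 CPM at 2.8 mM to 51.5, 48.4, 47.5, 52.5 and 40.1 at 16.7 mM, a log2 fold change of -1.24 (SE 0.13, edgeR adjusted p = 7.65e-06). *Mrpl9* had 66.6, 85.0, 63.3, 62.2 and 94.7 CPM against 33.1, 29.1, 29.3, 36.5 and 37.3, a log2 fold change of -1.17 (SE 0.15, edgeR adjusted p = 3.02e-05). *Mrps26*, of the small subunit, had 54.9, 61.4, 56.4, 60.6 and 109 CPM against 29.3, 25.8, 29.9, 36.4 and 34, a log2 fold change of -1.14 (SE 0.20, edgeR adjusted p = 0.000317). Its groups were separate, and replicate 5 at 2.8 mM stood far above the other 4. *Mrpl52* had 27.8, 23.0, 25.1, 25.4 and 29.3 CPM against 10.1, 9.87, 12.3, 15.7 and 12.9, a log2 fold change of -1.10 (SE 0.17, edgeR adjusted p = 0.000153). *Mrps24*, of the small subunit, had 61.8, 58.1, 54.2, 50.7 and 68.1 CPM against 28.3, 24.0, 28.3, 29.6 and 31.6, a log2 fold change of -1.05 (SE 0.16, edgeR adjusted p = 0.000102). All 5 genes were separate between the glucose concentrations, with levels at 16.7 mM from 0.424-fold to 0.484-fold of those at 2.8 mM.

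**Figure D3:**
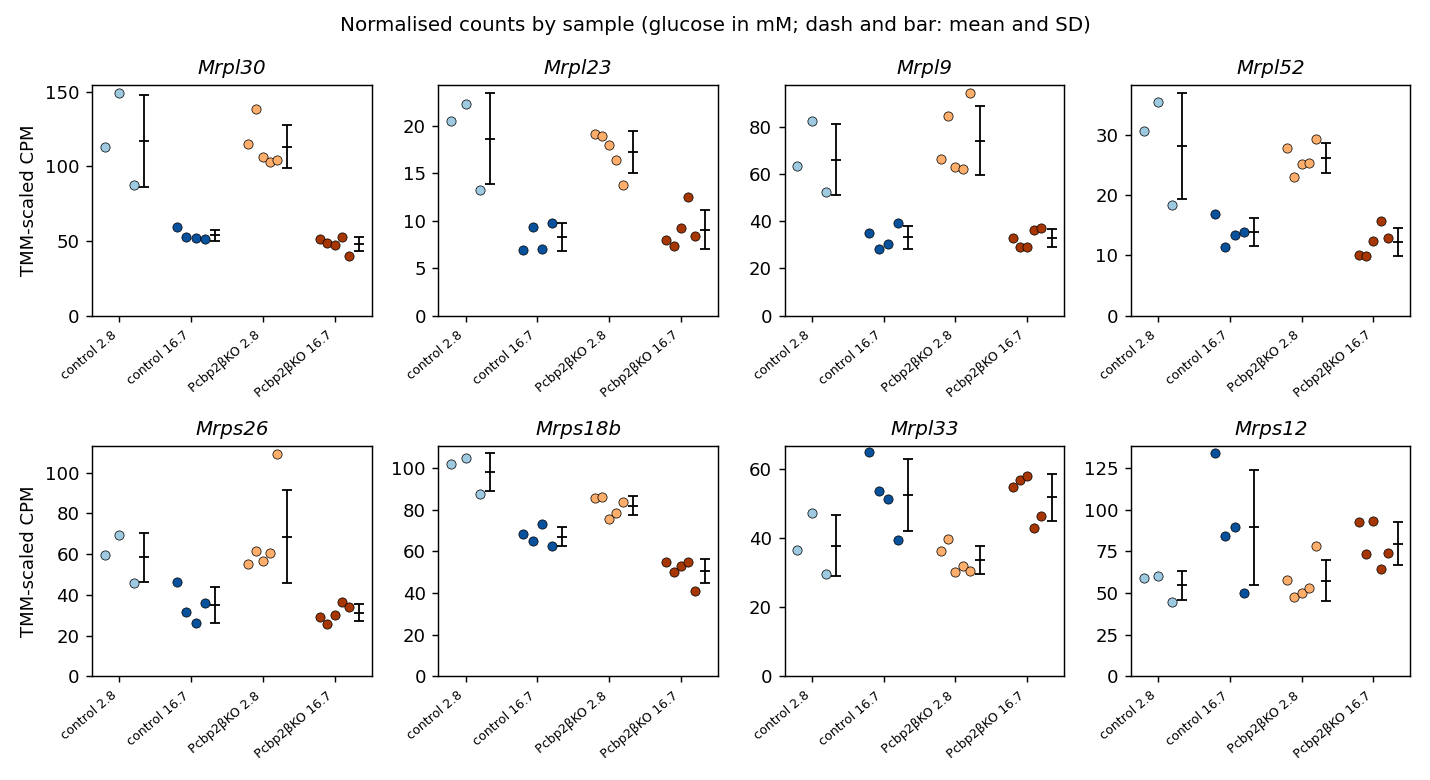
CPM on TMM-adjusted library sizes in every sample for 8 genes, by group, with the mean and SD beside the points (3, 4, 5 and 5 samples). *Mrpl30*, *Mrpl23*, *Mrpl9*, *Mrpl52*, *Mrps26* and *Mrps18b* were lower at 16.7 mM in both genotypes, with overlap between the glucose groups of control cells in *Mrps26* alone, while *Mrpl33* and *Mrps12* had higher mean CPM at 16.7 mM and lower mean TPM.

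The genes called in the 2 genotypes were largely shared. Of the 26 members called lower in either genotype, 19 were called in both, which is 79.2% of the 24 in control cells and 90.5% of the 21 in *Pcbp2*βKO cells. They were *Mrpl3*, *Mrpl9*, *Mrpl12*, *Mrpl15*, *Mrpl21*, *Mrpl23*, *Mrpl30*, *Mrpl38*, *Mrpl39*, *Mrpl52*, *Mrps2*, *Mrps5*, *Mrps6*, *Mrps7*, *Mrps9*, *Mrps24*, *Mrps26*, *Mrps27* and *Mrps35*. *Mrpl1*, *Mrpl2*, *Mrpl48*, *Mrps10* and *Mrps15* were called in control cells and not in *Pcbp2*βKO cells, and *Mrps18b* and *Mrps23* the reverse. The 2 comparisons share no samples. Across the 78 genes, which are not independent replicates, their log2 fold changes had a Pearson r of 0.92 and 69 had the same sign, 60 of them negative in both genotypes.

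The interaction, which asks whether the glucose response differed between the genotypes, gave no called member (0 of 78, against 0.00439% of all genes) and 0 with an unadjusted p under 0.05 (4.57% of all genes). By DESeq2 the count of called members was also 0. The estimates ran from -0.40 to 0.33 with a median SE of 0.21, and 59 of the 78 were within 0.2 of zero on the log2 scale. The members with the smallest p were *Mrpl11*, with an estimate of 0.27 (SE 0.17), and *Mrps17*, with -0.25 (SE 0.16), and both had an edgeR adjusted p = 1.0. *Mrpl11* had 27.3, 29.3 and 23.2 CPM in control cells at 2.8 mM and 23.0, 21.2, 23.0 and 20.4 at 16.7 mM. The *Pcbp2*βKO samples had 22.5, 21.5, 21.9, 22.7 and 26.3 at 2.8 mM and 21.1, 20.5, 22.4, 22.9 and 27.3 at 16.7 mM, with overlap between those groups. *Mrps17* had 57.0, 63.2 and 51.0 CPM in control cells at 2.8 mM and 47.4, 46.5, 43.7 and 49.7 at 16.7 mM, and its values in *Pcbp2*βKO cells were 60.7, 55.8, 61.0, 62.3 and 73.2 at 2.8 mM and 44.2, 37.0, 41.6, 45.9 and 47.0 at 16.7 mM. It was lower at 16.7 mM without overlap in both genotypes, and past the adjusted p in *Pcbp2*βKO cells alone (edgeR adjusted p = 0.0007), where its log2 fold change of -0.54 was under the fold limit.

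On TMM-adjusted library sizes 14 members in control cells and 13 in *Pcbp2*βKO cells had positive estimates, while on log2(TPM + 1), whose total includes the insulin transcripts, 0 of 78 did in either genotype. The median of all genes on log2(TPM + 1) was also negative, at -0.24 in control and -0.33 in *Pcbp2*βKO cells. The 5 with the highest values in control cells are described on the first scale, and all 5 were negative on the second in both genotypes. *Mrpl33*, a large subunit gene, had 36.5, 47.3 and 29.7 CPM in control cells at 2.8 mM and 65.1, 53.9, 51.5 and 39.6 at 16.7 mM, a log2 fold change of 0.47 (SE 0.18, edgeR adjusted p = 0.0874) that was called with the replicate number as a block (0.61, edgeR adjusted p = 0.012). It rose without overlap in *Pcbp2*βKO cells, from 36.3, 39.8, 30.2, 31.9 and 30.5 CPM to 55, 56.9, 58.1, 42.9 and 46.6, or 0.62 on the log2 scale (SE 0.15, edgeR adjusted p = 0.0042). This call was lost without replicate 3 of either *Pcbp2*βKO group (0.58 in each case), and on log2(TPM + 1) the estimates of *Mrpl33* were -0.34 in control and -0.41 in *Pcbp2*βKO cells. *Mrps12*, whose product forms part of the decoding site, had 59.1, 60.4 and 44.6 CPM in control cells at 2.8 mM and 134, 84.4, 89.6 and 50.1 at 16.7 mM. The low value at 16.7 mM was that of replicate 4, 1 of the 3 libraries that lay apart, and the log2 fold change was 0.71 (SE 0.25, edgeR adjusted p = 0.0626), or 0.89 with the block (edgeR adjusted p = 0.00484). Control replicate 4 has no partner at 2.8 mM, so the block estimates of *Mrpl33* and *Mrps12* in control cells do not draw on it. *Mrps12* in *Pcbp2*βKO cells had 58.1, 47.9, 49.9, 52.8 and 78.1 CPM at 2.8 mM and 92.4, 73.7, 93.5, 64.6 and 74.2 at 16.7 mM, which overlapped, with a log2 fold change of 0.47 (SE 0.21, edgeR adjusted p = 0.0918). On log2(TPM + 1) the estimates of *Mrps12* were -0.20 and -0.56. *Sars2*, the gene that faces *Mrps12*, was called higher in both genotypes, by 0.71 in control cells (SE 0.22, edgeR adjusted p = 0.0355) and by 1.10 in *Pcbp2*βKO cells (SE 0.18, edgeR adjusted p = 0.000216), and had -0.08 and 0.08 on log2(TPM + 1).

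*Mrpl50*, *Mrps21* and *Mrps14* completed the 5 largest positive estimates in control cells. *Mrpl50* had 37.5, 43.2 and 39.9 CPM in control cells at 2.8 mM and 39.3, 47.8, 71.5 and 62.6 at 16.7 mM (log2 fold change 0.46, SE 0.20). The *Pcbp2*βKO samples had 38.6, 38.6, 30.4, 34.7 and 33.2 against 43.0, 42.7, 41.4, 50 and 69.3, without overlap and past the adjusted p but not the fold limit (0.49, SE 0.16, edgeR adjusted p = 0.0306). *Mrps21*, a small subunit gene with the highest mean TPM of all members, had 54.3, 57.2 and 45.0 CPM against 84.0, 64.8, 60.1 and 46.8 in control cells, and 60.5, 50, 53.8, 57.0 and 50.5 against 62.0, 54.6, 59.0, 55.6 and 66.5 in *Pcbp2*βKO cells. *Mrps14*, of the small subunit, had 74.3, 84.3 and 75.3 CPM against 87.9, 95.7, 112 and 78.9 in control cells, and 81.6, 74.3, 64.5, 68.1 and 77.9 against 102, 91.2, 95.7, 72.8 and 76.5 in *Pcbp2*βKO cells. The glucose groups overlapped in both genes and both genotypes, and neither passed the test. On log2(TPM + 1) the estimates in control and *Pcbp2*βKO cells were -0.34 and -0.52 for *Mrpl50*, -0.57 and -0.92 for *Mrps21*, and -0.63 and -0.79 for *Mrps14*. The ratio of *Mrps12* to *Mrpl30* within a sample does not depend on how libraries are scaled. As log2 of the CPM ratio it lay between -1.53 and -0.42 over the low-glucose samples and between -0.02 and 1.17 over the high-glucose samples, without overlap. The pair was chosen for its opposite changes, and no test is given.

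Among the members named for their role, *Mrpl12*, which forms the stalk of the large subunit, fell in both genotypes. It had 55.8, 60.7 and 38.7 CPM in control cells at 2.8 mM and 43.8, 28.4, 27.5 and 30.4 at 16.7 mM, which overlapped (log2 fold change -0.67, SE 0.20, edgeR adjusted p = 0.0316). This call was lost without any of 5 single control samples. Its *Pcbp2*βKO samples had 54.2, 60.7, 51.5, 53.7 and 88.7 against 31.4, 29.0, 33.9, 33.8 and 28.7, without overlap (-0.98, SE 0.17, edgeR adjusted p = 0.000343). *Mrpl58*, the peptidyl-tRNA hydrolase that is part of the large subunit, had 52.3, 63.7 and 39.6 CPM against 48.3, 34.3, 41.4 and 35.4 in control cells (-0.38, SE 0.15, edgeR adjusted p = 0.0979). Its *Pcbp2*βKO samples had 47.9, 46.9, 42.3, 46.8 and 40.9 against 32.5, 29.2, 34.2, 33.9 and 31.0 (-0.48, SE 0.13, edgeR adjusted p = 0.00739), lower without overlap but under the fold limit.

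*Mrps18a*, *Mrps18b* and *Mrps18c* are paralogs of 1 bacterial gene, of which *Mrps18a* belongs to the large subunit. Their log2 fold changes were alike in control cells, at -0.36 (SE 0.14), -0.55 (SE 0.12) and -0.44 (SE 0.15). In *Pcbp2*βKO cells they were -0.52 (SE 0.12), -0.69 (SE 0.10) and -0.46 (SE 0.13), and all 3 passed the adjusted p, with *Mrps18b* also past the fold limit (edgeR adjusted p = 7.55e-05). *Mrps18a* had 75.3, 81.6 and 58.7 CPM in control cells at 2.8 mM and 65.3, 56.0, 57.9 and 45.4 at 16.7 mM, and 66.8, 75.3, 62.1, 63.1 and 68.4 against 49.4, 40.3, 50.4, 46.0 and 47.9 in *Pcbp2*βKO cells. *Mrps18c* had 54.1, 73.5 and 43.8 CPM against 44.6, 42.3, 41.2 and 39.8 in control cells, and 52.7, 58.4, 41.9, 51.2 and 50.7 against 40.1, 36.7, 39.7, 36.9 and 32.4 in *Pcbp2*βKO cells. The groups of *Mrps18a* and *Mrps18c* overlapped in control cells and were separate in *Pcbp2*βKO cells.

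*Mrps30* was the most variable member, with 16.7, 18.1 and 35.4 CPM in control cells at 2.8 mM and 4.03, 3.54, 16.5 and 29.4 at 16.7 mM, and with 26.6, 28.6, 47.2, 62.1 and 22.9 against 19.8, 19.9, 10.3, 24.7 and 12.1 in *Pcbp2*βKO cells. The groups overlapped in both genotypes, and the log2 fold changes of -0.80 (SE 0.56) and -1.11 (SE 0.48) did not pass the test. With the replicate number as a block, *Mrps30* was called lower in control cells (-1.82, edgeR adjusted p = 0.00204). That estimate does not draw on control replicate 4 at 16.7 mM (29.4 CPM), which has no partner at 2.8 mM. *Mrps36*, which is not a mitoribosomal protein, had 23.2, 33.3 and 25.5 CPM against 26.9, 30.8, 32.3 and 29.4 in control cells, and 32.9, 36.7, 23.9, 25.9 and 28.6 against 32.7, 33.4, 29.2, 25.2 and 37.2 in *Pcbp2*βKO cells. Its log2 fold changes were 0.12 (SE 0.17) and 0.09 (SE 0.14), with overlap throughout. The files list 3 pseudogenes of *Mrps36*, to which its reads could in part be assigned.

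With *Mrps30* and *Mrps18a* counted in the large subunit and *Mrps36* left out, 13 of 51 large subunit genes (25.5%) and 11 of 26 small subunit genes (42.3%) were called lower in control cells, with median log2 fold changes of -0.28 and -0.52. For *Pcbp2*βKO cells, 10 of 51 (19.6%) and 11 of 26 (42.3%) were called lower, with medians of -0.37 and -0.54. Over all genes, 6.69% were called lower in control cells and 10.4% in *Pcbp2*βKO cells. The difference between the subunits was not tested. The least abundant genes per length follow. *Mrpl47* had 10.3, 11.2 and 10.3 CPM against 12.4, 10.7, 14.1 and 9.50 in control cells, and 10.4, 11.5, 7.74, 11.6 and 13.1 against 11.4, 9.76, 10, 9.78 and 11.8 in *Pcbp2*βKO cells. *Mrpl45* had 17.5, 20.5 and 19.7 against 18.3, 13.6, 20.5 and 19.2, and 17.6, 16.1, 15.5, 15.9 and 24.1 against 16, 13.2, 16, 18.6 and 19.9. Both genes overlapped between the glucose concentrations in each genotype. *Mrpl19* had 20.6, 24.8 and 16.4 CPM against 16.2, 11.7, 15.3 and 17.5 in control cells, and in *Pcbp2*βKO cells 21.6, 21.8, 18.4, 20.7 and 25.9 against 13.6, 12.6, 14.2, 16.6 and 20.1, past the adjusted p but not the fold limit (-0.49, SE 0.16, edgeR adjusted p = 0.024). *Mrpl42*, the third most abundant member, had 86.0, 104 and 75.5 CPM against 85.0, 79.1, 77.8 and 74.4 in control cells, and 86.5, 91.7, 73.7, 82.2 and 110 against 89.5, 82.1, 79.1, 73.8 and 85.9 in *Pcbp2*βKO cells. Its groups overlapped, with log2 fold changes of -0.16 (SE 0.14) and -0.11 (SE 0.11).

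The summed level of the 78 genes was 3816 ± 609 CPM in control cells at 2.8 mM (SD, n = 3) and 3048 ± 245 at 16.7 mM (SD, n = 4). In *Pcbp2*βKO cells it was 3756 ± 275 and 2902 ± 111 CPM (SD, n = 5 each). In TPM, where the insulin transcripts took 19.7 to 35.1% at the low and 56.9 to 62.5% at the high glucose concentration, the sums were 4992 ± 575 and 2367 ± 278 in control cells (SD, n = 3 and 4) and 5391 ± 364 and 2103 ± 143 in *Pcbp2*βKO cells (SD, n = 5 each). The size of the difference thus depended on the scale. With total counts alone, 50 members were called lower in control cells and 56 in *Pcbp2*βKO cells, and the median of all genes was -0.35 and -0.47. That scaling called 17.8% of all genes lower and 3.43% higher in control cells, and 28.0% lower and 6.5% higher in *Pcbp2*βKO cells. The distance between the median member and the median gene was -0.41 and -0.43 with TMM factors and -0.42 and -0.43 with total counts, which shift all genes of a library alike. It was -0.88 and -1.06 on log2(TPM + 1), and -0.62 and -0.71 on log2(TPM + 0.1). The median of all genes was -0.24 and -0.33 with the constant 1, and -0.56 and -0.71 with 0.1. On TPM the distance thus depended on the constant added.

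The knockout of *Pcbp2* gave no called member at either glucose concentration. At 2.8 mM, 0 of 78 were called (2.04% of all genes), 3 had an unadjusted p under 0.05 (12.9% of all genes) and the median log2 fold change was -0.02. At 16.7 mM, 0 of 78 were called (1.71% of all genes), 4 had an unadjusted p under 0.05 (12.1% of all genes) and the median was -0.07. DESeq2 also called 0 in both. With median SE of 0.16 and 0.14 on the log2 scale, differences of that size were not detectable in these samples.

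*Mrps18b* had the smallest p at 16.7 mM. It had 68.3, 64.8, 73.0 and 62.6 CPM in control cells and 54.8, 49.9, 53.1, 55 and 41.0 in *Pcbp2*βKO cells, which did not overlap, with a log2 fold change of -0.40 (SE 0.11, edgeR adjusted p = 0.0636). At 2.8 mM it had 102, 105 and 87.6 CPM in control cells and 85.8, 86.2, 75.8, 78.5 and 83.8 in *Pcbp2*βKO cells, also without overlap (-0.26, SE 0.12, edgeR adjusted p = 0.33). Over 23 fits, its value at 16.7 mM ran from -0.46 to -0.33 and its adjusted p from 0.0122 to 0.242. The lowest was that of DESeq2, and the change was under the fold limit in every fit. *Mrpl58* was next at 16.7 mM (-0.31, SE 0.13, edgeR adjusted p = 0.348), with 48.3, 34.3, 41.4 and 35.4 CPM in control cells and 32.5, 29.2, 34.2, 33.9 and 31.0 in *Pcbp2*βKO cells. At 2.8 mM the smallest p was that of *Mrps10*, of the small subunit, with 61.4, 76.4 and 55 CPM in control cells and 53.4, 59.8, 43.6, 50.5 and 46.4 in *Pcbp2*βKO cells, which overlapped (-0.34, SE 0.13, edgeR adjusted p = 0.242). At 16.7 mM *Mrps10* had 42.3, 39.4, 41.6 and 42.8 CPM in control cells and 36.9, 35.7, 34, 40.6 and 30.8 in *Pcbp2*βKO cells (-0.22, SE 0.12, edgeR adjusted p = 0.503).

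Of 5 mitoribosomal protein genes with symbols of another kind, 3 were called lower with glucose in control cells and 2 in *Pcbp2*βKO cells. For this and the lists that follow, 6.69% of all genes were called lower and 7.15% higher in control cells. The shares in *Pcbp2*βKO cells were 10.4% and 13.4%. *Dap3*, a GTP-binding protein of the small subunit, had a log2 fold change of -0.63 in control cells (SE 0.15, edgeR adjusted p = 0.0107) and of -0.94 in *Pcbp2*βKO cells (SE 0.13, edgeR adjusted p = 4.66e-05). *Chchd1* was called in both (-0.67 and -0.85), and *Aurkaip1* in control cells (-0.65), with -0.53 in *Pcbp2*βKO cells. *Ptcd3* (-0.18 and -0.16) and *Gadd45gip1* (-0.25 and -0.34) were not called. Of 26 genes for assembly of the mitoribosome and modification of its rRNA, 7 were lower and 0 higher in control cells, and 6 lower and 1 higher in *Pcbp2*βKO cells, with medians of -0.39 and -0.41. *Noa1*, a GTPase of small subunit assembly, had -1.30 and -1.67, *Malsu1*, a factor bound to the large subunit during assembly, -0.85 and -1.16, and the rRNA methyltransferase gene *Mrm3* -0.67 and -0.99, all called in both genotypes, while *Nsun4*, another rRNA methyltransferase gene, was called higher in *Pcbp2*βKO cells (0.88, but -0.33 on log2(TPM + 1)).

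Of 16 translation factors, 1 was called lower in control cells (6.69% of all genes) and 3 in *Pcbp2*βKO cells (10.4% of all genes). Their medians were -0.17 and -0.16. *Oxa1l*, the inner membrane insertase that receives new proteins from the mitoribosome, was called in both (-0.62 and -0.72), and the elongation factor gene *Tufm* had 0.33 and 0.38, the latter past the adjusted p (edgeR adjusted p = 0.0111) but not the fold limit, and -0.51 and -0.63 on log2(TPM + 1). Of 20 genes for mitochondrial aminoacyl-tRNA synthetases and the amidotransferase, 5 were lower and 1 higher in control cells, and 6 lower and 2 higher in *Pcbp2*βKO cells. *Wars2* (-1.38 and -1.36), *Gatb* (-1.33 and -1.10) and *Tars2* (-1.01 and -1.03) fell in both genotypes, and *Sars2* rose in both on TMM-adjusted library sizes, though not on log2(TPM + 1). Of 7 genes for transcription and replication of mitochondrial DNA, 1 was lower in control cells and 2 in *Pcbp2*βKO cells. *Tfam*, which packages mitochondrial DNA and starts its transcription, was called in control cells (-0.63) and under the fold limit in *Pcbp2*βKO cells (-0.40).

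Of 9 regulators known for mitochondrial genes, 3 were lower in control cells (6.69% of all genes) and 6 in *Pcbp2*βKO cells (10.4% of all genes), and 0 were higher. *Nrf1*, whose product binds the NRF1 motif, had 84.9 ± 9.29 CPM in control cells at 2.8 mM and 40.1 ± 12 at 16.7 mM (SD, n = 3 and 4), a log2 fold change of -1.08 (SE 0.19, edgeR adjusted p = 0.00161). Its level in *Pcbp2*βKO cells was 69.0 ± 3.08 and 34.7 ± 6.88 CPM (SD, n = 5 each), a log2 fold change of -0.99 (SE 0.16, edgeR adjusted p = 0.000175). *Gabpa* and *Gabpb1* encode the subunits of an ETS factor; *Gabpb1* was lower in both (-0.71 and -1.01) and *Gabpa* passed both limits in *Pcbp2*βKO cells (-0.66) and the adjusted p alone in control cells (-0.50). *Myc* was lower in both (-1.72 and -2.16). The log2 fold changes of the 78 genes can be set beside the motifs in their promoters. Members with an ETS match had a median log2 fold change of -0.24 in control cells and members without it -0.39, and for the NRF1 match the medians were -0.40 and -0.37. For *Pcbp2*βKO cells the medians were -0.37 with and -0.46 without the ETS match, and -0.52 with and -0.41 without the NRF1 match. Among the 26 members called lower in either genotype, 7 held an ETS match (26.9%) and 7 an NRF1 match (26.9%), against 17 (32.7%) and 9 (17.3%) of the other 52. These are descriptions with no test.

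The median member lay between those of the cytosolic ribosome and of the respiratory chain. Of 85 cytosolic ribosomal protein genes tested, 72 were lower and 0 higher in control cells and 79 lower and 1 higher in *Pcbp2*βKO cells, with medians of -1.09 and -1.21. Of 77 nuclear genes of the respiratory chain and ATP synthase, 11 were lower and 4 higher in control cells and 12 lower and 6 higher in *Pcbp2*βKO cells, with medians of -0.09 and -0.08. Over all genes, 6.69% were lower and 7.15% higher in control cells, and 10.4% and 13.4% in *Pcbp2*βKO cells. The 13 mitochondrially encoded mRNAs, which the mitoribosome translates, had medians of 0.31 and 0.77. In control cells 1 was called higher and 0 lower, or 3 higher and 1 lower with the replicate block (10.4% and 11.7% of all genes). In *Pcbp2*βKO cells 8 were higher and 0 lower, among them *mt-Nd4* (1.05) and *mt-Cytb* (1.02). That direction depended on the scale. With total counts alone their median was -0.09 in control cells and 0.29 in *Pcbp2*βKO cells, and on log2(TPM + 1) it was -0.57 and -0.22. The mitochondrial rRNA *mt-Rnr1* had -0.40 in control cells and was called lower in *Pcbp2*βKO cells (-0.80), and *mt-Rnr2* had -0.34 and -0.52. Libraries were made from polyA RNA, which limits what rRNA values measure. The differences between classes were not tested.

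**Figure D4:**
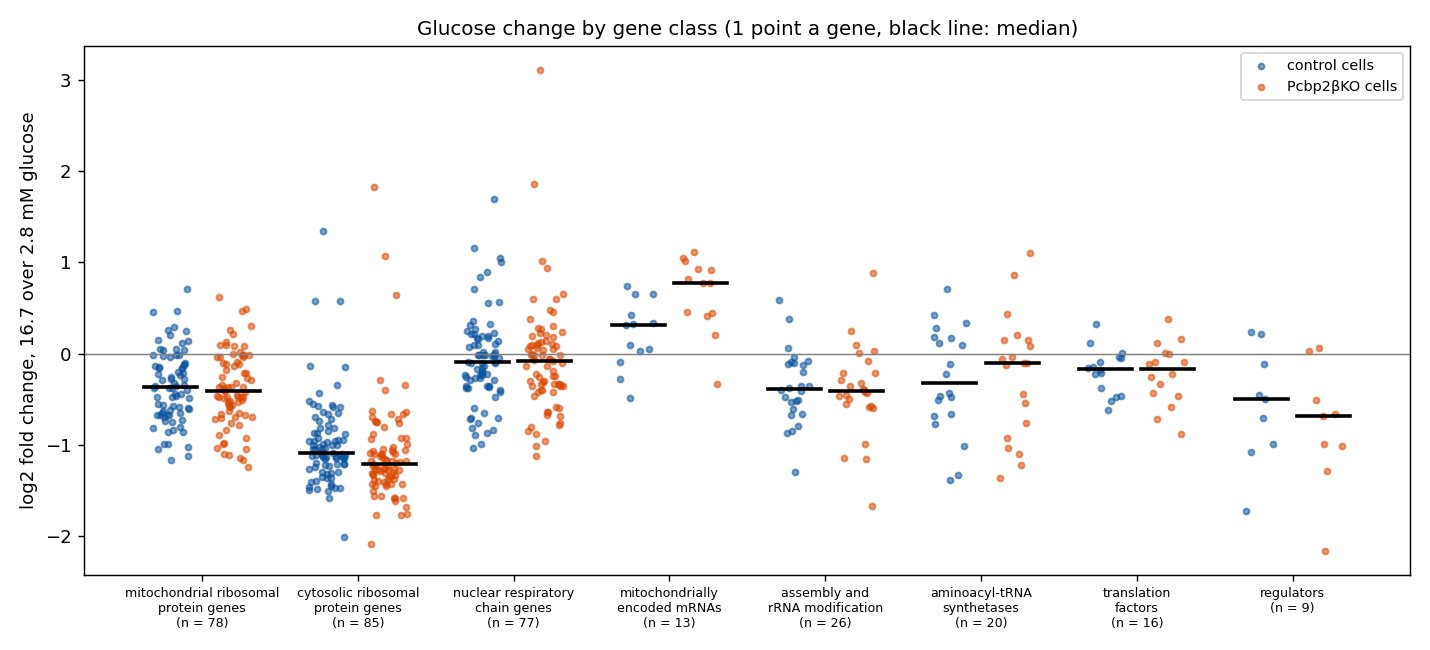
Log2 fold change from 2.8 to 16.7 mM glucose by gene class, with 1 point a gene and a black line at the median (blue, control cells; orange, *Pcbp2*βKO cells). The medians of mitochondrial ribosomal protein genes, -0.37 and -0.42, lay between those of cytosolic ribosomal protein genes (-1.09 and -1.21) and those of nuclear respiratory chain genes (-0.09 and -0.08).

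The genes that face members across a shared upstream region were also compared. The 14 facing genes had a median log2 fold change of -0.02 in control cells, with 1 called lower and 3 higher, and the 14 members beside them had -0.12. In *Pcbp2*βKO cells the medians were -0.02 and -0.20, with 2 facing genes lower and 4 higher. The shares of all genes were 6.69% lower and 7.15% higher in control cells, and 10.4% and 13.4% in *Pcbp2*βKO cells. *Mitd1*, 61 bases from *Mrpl30*, had -0.05 in control cells (edgeR adjusted p = 0.899) and -0.29 in *Pcbp2*βKO cells (edgeR adjusted p = 0.141). *Ppp1r10*, 598 bases from *Mrps18b*, was called higher in both (1.25 and 1.62), but had 0.32 and 0.38 on log2(TPM + 1) and was not called there. *Fau*, beside *Mrpl49*, was called lower in both (-1.03 and -1.43) where *Mrpl49* had -0.32 and -0.45. The members without a facing gene had a median of -0.44 in control cells. *Mrpl46* and *Mrps11*, which face each other, had -0.01 and -0.02 in control cells and 0.00 and -0.04 in *Pcbp2*βKO cells. *Mrpl46* and *Mrps11* are counted among both the members and the facing genes. *Mitd1*, *Ppp1r10* and *Fau* are no members, and they were picked from the facing genes after their values had been seen.

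The estimated counts are given per transcript, so that the make-up of each member could also be compared. Transcripts annotated as protein coding took 86.0 to 88.4% of the members' counts in every sample, those with a retained intron 4.94 to 6.61%, and those subject to nonsense-mediated decay 4.21 to 5.46%, with group ranges that overlapped or met. Within genes, 124 transcripts of 50 members held between 5 and 95% of their gene on average and were tested by two-sided exact permutation tests. With glucose in *Pcbp2*βKO cells, 36 had a p under 0.05 and 16 reached the smallest p that 5 against 5 samples allow (0.00794), yet 0 passed after adjustment over the 124 (smallest adjusted p = 0.0615). Transcripts of other genes were not tested, so whether these counts are particular to the members is not known. In control cells 11 reached the smallest possible p, 0.0286, and 0 passed after adjustment (smallest adjusted p = 0.322). The knockout gave 4 at 2.8 mM and 11 at 16.7 mM with an exact permutation p under 0.05 and 0 after adjustment. For glucose in control cells and the knockout at 2.8 mM, the smallest possible exact permutation p was 0.0286 and 0.0179. Passing after adjustment would there take a large part of the 124 transcripts at that p. These results of 0 thus do not tell whether shares changed. The 4 transcripts described next were chosen after their values had been seen.

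*Mrpl13-202*, a transcript of 730 bases annotated for nonsense-mediated decay, held 29.5, 34.4 and 26.7% of the counts of *Mrpl13* in control cells at 2.8 mM and 23.0, 20.5, 13.7 and 23.5% at 16.7 mM. Its shares in *Pcbp2*βKO cells were 30.3, 37.1, 30.8, 37.3 and 44.2% against 11.9, 21.3, 9.35, 19.2 and 17%. The groups were separate in both genotypes, with means of 30.2 ± 3.91% and 20.1 ± 4.49% in control cells and 36.0 ± 5.68% and 15.8 ± 5.01% in *Pcbp2*βKO cells (SD; exact permutation p = 0.0286 and 0.00794). *Mrpl24-201* held 36.3, 34.5 and 30.5% of its gene in control cells at 2.8 mM and 23.0, 18.7, 23.6 and 23.3% at 16.7 mM, and 36.0, 41.4, 34.9, 39.4 and 50.5% against 22.3, 16.9, 12.3, 30.8 and 32.6% in *Pcbp2*βKO cells. It too had a lower share at 16.7 mM without overlap in either genotype, while *Mrpl24-203* had a mean share of 10.5% and 21.0% in control cells and 9.97% and 21.6% in *Pcbp2*βKO cells.

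*Mrps23-203* had the opposite direction, with 2.25, 1.17 and 2.35% in control cells at 2.8 mM and 12.1, 8.57, 13 and 8.09% at 16.7 mM, and 4.71, 1.73, 1.42, 2.68 and 1.82% against 7.78, 7, 13, 7.32 and 6.38% in *Pcbp2*βKO cells. Its share remained a minor part of the gene at either concentration. *Mrps34-202*, annotated with a retained intron, had 3.38, 2.53 and 4.57% against 7.19, 7.07, 6.06 and 6.41% in control cells and 3.94, 4.22, 4.35, 3.86 and 4.53% against 7.06, 9.35, 7.98, 7.75 and 8.36% in *Pcbp2*βKO cells. Both were separate between the glucose concentrations in each genotype (exact permutation p = 0.0286 in control cells and 0.00794 in *Pcbp2*βKO cells for each). Shares of similar transcripts are estimates that reads can assign only in part.

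**Figure D5:**
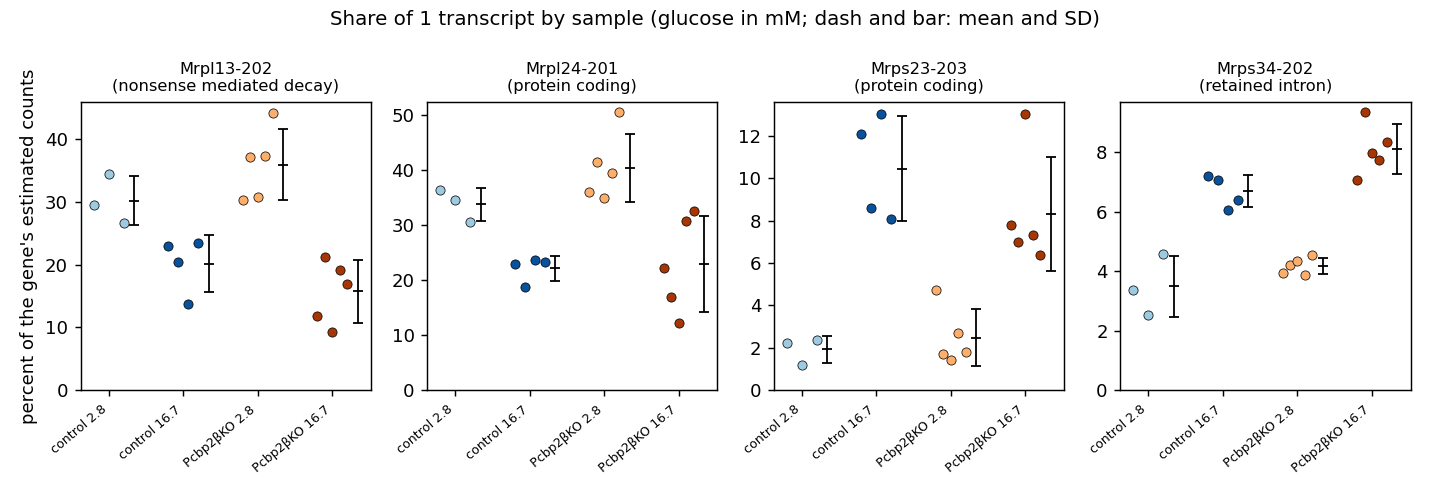
Percent of the gene's estimated counts held by 4 transcripts in every sample, by group, with the mean and SD beside the points (3, 4, 5 and 5 samples). *Mrpl13-202* and *Mrpl24-201* had lower shares and *Mrps23-203* and *Mrps34-202* higher shares at 16.7 mM, without overlap between the glucose concentrations in either genotype.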

How the data were processed

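Islet β cells sorted as live tdTomato+ cells gave 17 libraries of polyA RNA (Ultra Low Input RNA kit, paired ends). Per the study's methods, the authors pseudoaligned reads with Kallisto to the GRCm39 mouse transcriptome and deposited an estimated count and a TPM for each of 142376 transcripts; Kallisto's version is not given in the sources used here. The estimated counts that the authors deposited are not normalized between samples, and the deposited TPM are scaled to transcript length and a fixed total.

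The estimates of each gene's transcripts were added up, rounded to whole numbers and tested with edgeR 4.0.16 (R 4.3.3) over 22784 genes that passed its default filter. The model held the 4 group means, with TMM factors, and p values were adjusted by Benjamini-Hochberg over all genes tested. Genes below 0.05 after adjustment and changed by more than 1.5-fold were called. The authors' model had a batch term whose levels are not given in the sources used here, so it was left out. Depth was 47385513 to 82419400 counts a sample. DESeq2 1.42.0 and limma 3.58.1 were alternatives, and the tests were tested on simulated data. Same-numbered control samples at 2.8 and 16.7 mM deviated together (r = 0.199, 0.123 and 0.258), so the numbers were taken to pair them. Other groups had at least 1 pair at or below 0.1. The block fits still paired all groups by number, within genotype for glucose and the interaction and within glucose concentration for the knockout. Control replicate 4 at 16.7 mM has no partner at 2.8 mM and does not enter the control glucose estimate with the block.

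Full values were given for the 5 called members with the largest change in each direction with glucose, the 2 with the smallest p in the other contrasts, the 3 highest and lowest by TPM, 8 chosen by role and up to 5 of opposite sign. The 78 genes were set by symbol alone. The 8 by role and the other gene lists were chosen with earlier results of these data known. Positions and promoters came from GRCm39 with GENCODE annotation, in which all 78 gene IDs were found. A further single-gene result is not reported here.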

Additional observations from a re-analysis of the deposited data

Results flagged for a closer look

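Among 78 groups of 4 or 5 samples checked for the 26 genes described in full, 4 held a sample far from the others by Dixon's criterion. Chance gives about 1 in 20, which is near the rate found. All 4 were *Pcbp2*βKO replicate 5 at 2.8 mM. This library had 26.3 CPM of *Mrpl11*, where the other 4 of its group had 21.5 to 22.7, and 88.7 CPM of *Mrpl12*, where the others had 51.5 to 60.7. It had 24.1 CPM of *Mrpl45* against 15.5 to 17.6, and 109 CPM of *Mrps26* against 54.9 to 61.4. Over all 78 members, the same library was high by this criterion in 11, and control replicate 1 at 16.7 mM in 4. The share over all genes was not computed, so a property of the whole library cannot be told apart from one of the members. Its insulin transcripts took 10.5% of counts, against 5.04 to 6.94% in the other 4, and on the second principal component it lay at -92.1, where the others lay from -34.8 to 20.9. The part of these values in its levels was not tested. Without this library, *Mrps2* and *Mrps23* were no longer called lower with glucose in *Pcbp2*βKO cells, and *Mrps26* and *Mrpl12* still were.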

How the results depend on the processing

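For glucose in control cells, 24 members called became 50 with total counts alone, and 73 and 74 with limma on log2(TPM + 1) and log2(TPM + 0.1), where 29.5% and 37.1% of all genes were called lower. Their median, -0.37, became -0.76, -1.12 and -1.17, and -0.32 with the replicate block. With that block 30 were called, the 24 among them, and 11.7% of all genes were called lower and 10.4% higher. Leaving out 1 sample gave 11 to 30 calls, with 3.11 to 9.94% of all genes called lower, and medians of -0.48 to -0.25. For glucose in *Pcbp2*βKO cells, 22 calls became 56, 75 and 75 (37.2% and 51.8% of all genes lower on the TPM scales), and 45 with no fold limit. Of these 45, 43 were lower, where 14.2% of all genes were lower at the adjusted p alone. The median, -0.42, became -0.89, -1.39 and -1.43. Leave-one-out gave 21 to 27 calls, with 8.68 to 11.3% of all genes called lower, and medians of -0.44 to -0.36. Calls for the knockout and the interaction stayed at 0 in every setting, and the block changed none. The interaction median, -0.04, became -0.27 and -0.28 on the TPM scales; leave-one-out medians were -0.13 to 0.08 for the knockout at 2.8 mM, -0.12 to 0.01 at 16.7 mM and -0.15 to 0.07 for the interaction. The block changed no call of *Pcbp2*βKO glucose among the genes described but *Mrps30* (-1.07, edgeR adjusted p = 0.00519); in control cells it added *Mrpl33*, *Mrps12* and *Mrps30*, as given above. On log2(TPM + 1) all 78 members had negative estimates in both genotypes, where the median of all genes was -0.24 in control and -0.33 in *Pcbp2*βKO cells. Beside the values given above, those on log2(TPM + 1) and log2(TPM + 0.1) were -0.78 and -0.95 for *Mrpl47*, -0.63 in both for *Mrps14* and -0.81 and -0.82 for *Mrps36* in control cells. They were -0.41 in both for *Mrpl33*, -0.79 and -0.80 for *Mrps14*, -0.92 in both for *Mrps21* and -1.01 and -1.03 for *Mrps36* in *Pcbp2*βKO cells. At 3 to 5 samples a group, changes of the size of the median SE, 0.14 to 0.21, are not resolved.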
